A study of Mus musculus with 9 samples.

Results

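The 9 libraries of tumor-specific CD8+ T cells fell on both sides of a line at 5000 genes. A gene is called found in a library where at least 10 reads were counted on it without regard to strand, and a library with 5000 or more found genes is called rich. The 4 rich libraries were TetLowReg 7, TetLowReg 8, TetLowProg 9 and TetLowProg 12, and the 5 sparse libraries were TetHighProg 1, TetHighProg 2, TetHighProg 5, TetLowReg 6 and TetLowProg 10. The sides were chosen by the number of found genes, a measured value of these libraries, so differences between rich and sparse libraries are given as a description and carry no test.

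All cells came from wildtype BALB/c mice bearing CT26.WT, a colon carcinoma line, and all mice had received the anti-PD-1 antibody RMP1-14 on days 3, 6 and 9. Tumor-infiltrating CD8+CD44+ T cells that bind a tetramer of GSW11, a peptide antigen of this tumor, were sorted by how strongly they bound it. TetHighProg stands for high avidity cells of progressing tumors, TetLowProg for low avidity cells of progressing tumors and TetLowReg for low avidity cells of regressing tumors, with 3 libraries in each group. RNA was amplified over 22 PCR cycles by Smart-seq2, a protocol for small amounts of RNA that copies whole transcripts and has no molecular identifiers. The labels do not say that each library is a separate mouse, nor which libraries share a tumor, although the study describes 3 regressing and 3 progressing tumors as the source of the 3 groups, so the p-values given here measure only the spread between these libraries, which may be technical. All 3 TetHighProg libraries were sparse and all 4 rich libraries were low avidity, so high avidity and sparse detection cannot be told apart within TetHighProg.

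A CD8+ T cell reads antigen through a T cell receptor built of an alpha and a beta chain, held at the surface by the CD3 and zeta chains and helped by the CD8 coreceptor. The kinase Lck phosphorylates CD3 and zeta, Zap70 docks on them, and Lat gathers the enzymes that carry the signal to transcription factors of the NFAT, NR4A and AP-1 families. In tumors such cells are known for their killing proteins, granzymes and perforin, and for inhibitory receptors such as PD-1, CTLA-4 and TIGIT. In a bulk library of sorted cells, fewer cells of a type and less RNA per cell cannot be told apart.

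Depth overlapped between the sides but had a higher median in the rich libraries. Gene counts ran from 16405306 to 36429515 in the rich libraries (median 33920399.5) and from 22040786 to 33409472 in the sparse ones (median 25141184). Reads outside genes took 18.5% to 40.7% of a rich library and 35.7% to 41.3% of a sparse one. CPM values are each gene's counts per 1e6 gene counts of its own library, and with fewer genes to share them a sparse library gives each found gene a larger share.

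The rich libraries were not alike. The combined share of counts on 10 class II antigen presentation genes was 4.85% in TetLowReg 7, 4.03% in TetLowReg 8 and 6.18% in TetLowProg 12, but 0.0156% in TetLowProg 9. Of 14 B and plasma cell genes, 11 were found in TetLowReg 7, 11 in TetLowReg 8 and 12 in TetLowProg 12, 1 was found in TetLowProg 9 and none was found in any sparse library. Of all genes, 19.5% to 24.5% were found in a rich and 1.82% to 9.65% in a sparse library, so none of 14 in a sparse library is near what that share gives. Cd79a, a chain of the B cell receptor, had 4971, 1737, 0 and 5137 reads in TetLowReg 7, TetLowReg 8, TetLowProg 9 and TetLowProg 12. The lysozyme gene Lyz2 of macrophages had 299515, 19392, 0 and 18079 reads in the same order. Of 24 macrophage and dendritic cell genes, 13, 9, 6 and 10 were found in that order, and 0 to 2 in a sparse library. They took 0.154% of counts in the sparse TetHighProg 1, above 0.131% in TetLowProg 12 and 0.00914% in TetLowProg 9. Cd4, the coreceptor of helper T cells, had 2020, 42, 0 and 2 reads in that order. Of 8 genes of CD4 and regulatory T cells, 5, 2, 1 and 1 were found in that order, and 0 or 1 in a sparse library. TetLowProg 9 differed in other ways: 13.4% of its counts fell on genes with no match in the annotation, nearly all on the gene ID ENSMUSG00000098178 (4711912 reads), against 0.484% to 1.3% in the 8 other libraries, and 4.99% fell on cytosolic ribosomal protein genes, against 0.489% to 0.954%. Mitochondrially encoded genes took 44.5% of the counts of TetLowReg 7 and 14.2% of those of TetLowReg 8, of which mt-Cytb alone made up 40.2% and 11.4% of counts. What these reads contributed to the number of found genes was not tested. In TetLowProg 9, 5 of the 10 class II genes were found, and Ighm, the heavy chain constant gene of the early B cell receptor, had 8777 reads, beside 11274, 4491 and 9773 in TetLowReg 7, TetLowReg 8 and TetLowProg 12 and 0 in every sparse library.

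**Figure D1:**
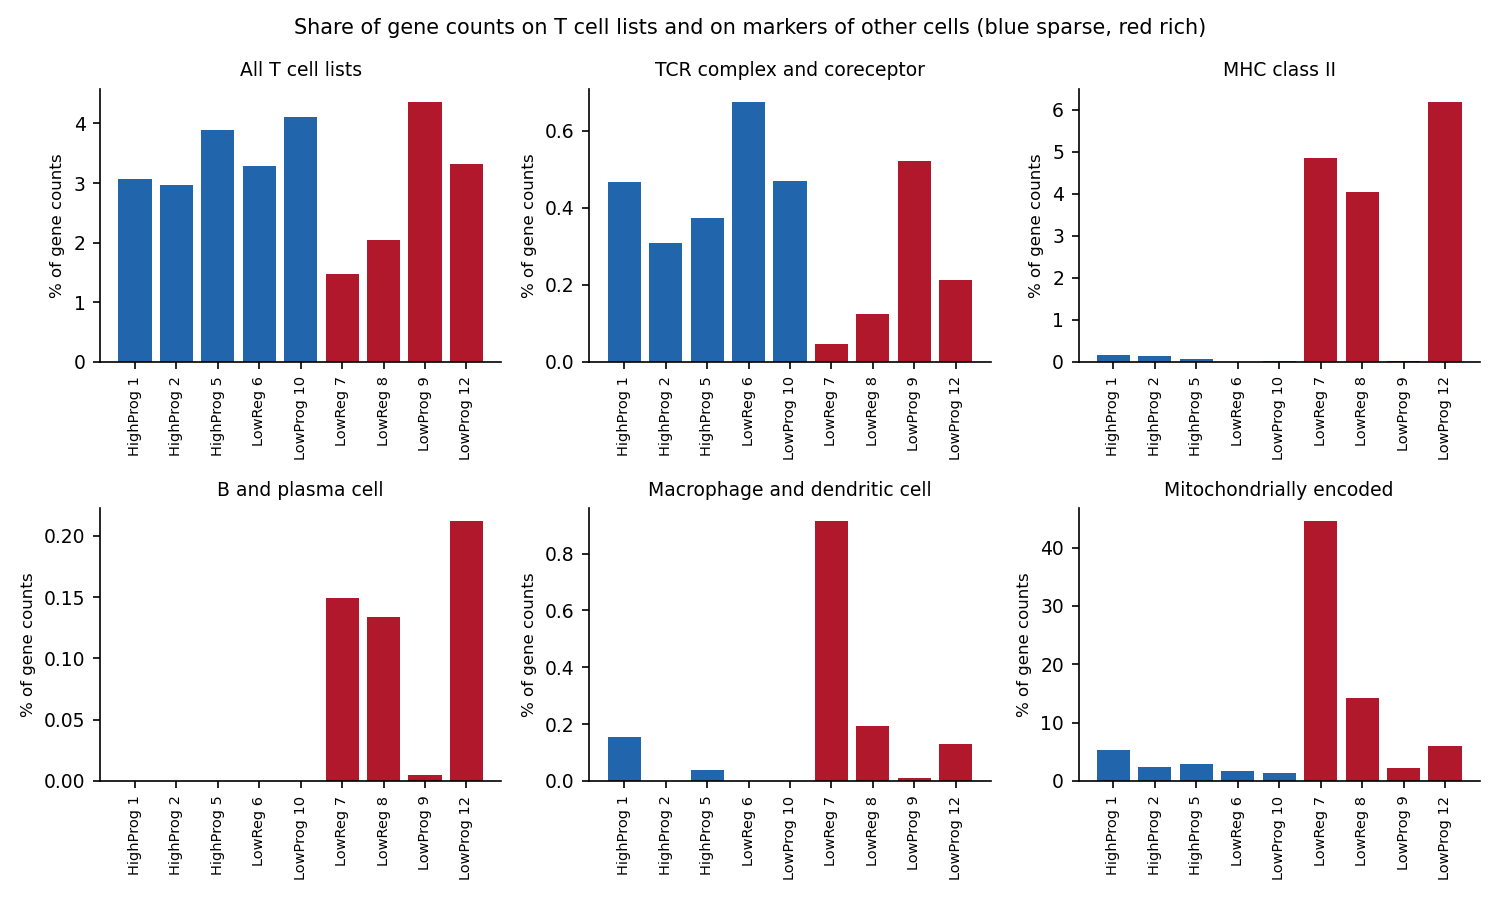
Each of 6 panels gives the percent of a library's gene counts (vertical axis, from 0) on 1 gene list, with a bar for each of the 5 sparse libraries (blue) and the 4 rich libraries (red). TetLowProg 9 is the rich library with little on class II genes, 0.0156% against 4.03% to 6.18% in the others, and the T cell lists together overlap between the sides.

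Found genes numbered 8004 in TetLowReg 7, 7234 in TetLowReg 8, 8071 in TetLowProg 9 and 6443 in TetLowProg 12. In the sparse libraries they numbered 1298 in TetHighProg 1, 599 in TetHighProg 2, 3181 in TetHighProg 5, 766 in TetLowReg 6 and 1148 in TetLowProg 10. The libraries nearest the line were TetLowProg 12 with 6443 and TetHighProg 5 with 3181 found genes, out of 32976 in the tables. At a minimum of 1 read, sparse libraries held 1534 to 4451 genes and rich ones 8166 to 11481. At 1000 reads they held 434 to 1790 and 1940 to 5260. These minimums use the same counts as the rule, so the lack of overlap is no separate support for the sides. Found genes in the sparse libraries were few but deeply read, with a median of 1605 to 8980 reads per found gene, whereas the medians in the rich libraries were 212.5 to 1738. The 500 genes with most reads held 74.5% to 100% of the counts of a sparse library and 51.1% to 81.6% of those of a rich one.

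**Figure D2:**
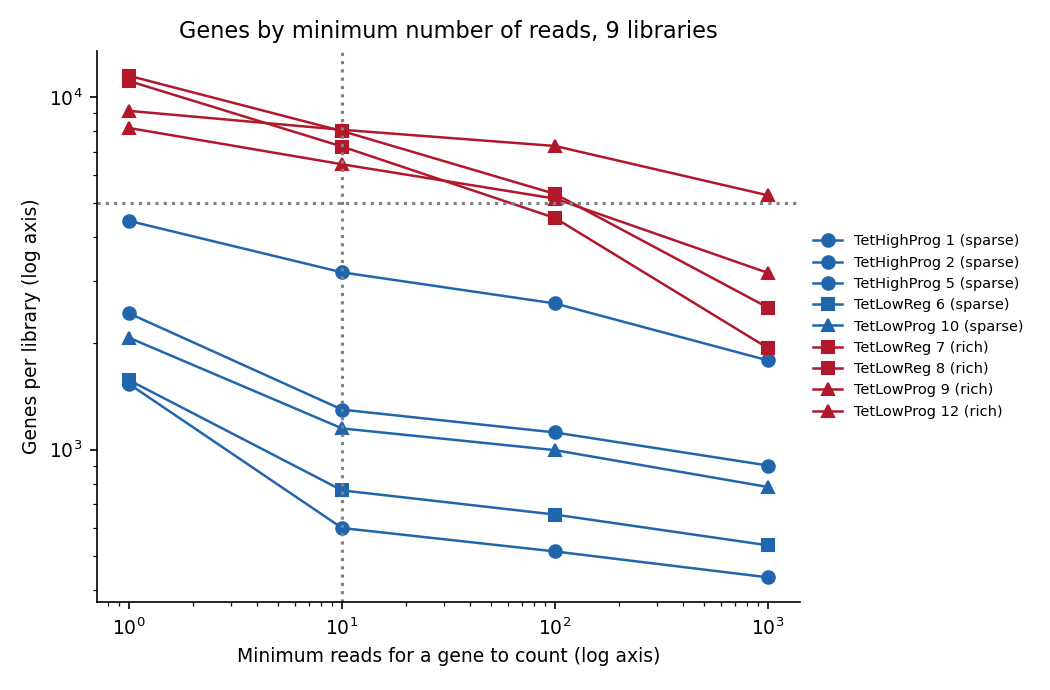
The curves show, for each of the 9 libraries, the number of genes (vertical axis) with at least the number of reads on the horizontal log axis. The 4 rich libraries hold 1940 to 5260 genes at 1000 reads and the 5 sparse libraries 434 to 1790.

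A common set of 3197 genes, 9.69% of all, was found in all 4 rich libraries. A further 2200 genes were found in 3 of them, 2681 in 2 and 5002 in 1. Genes found in that rich library alone made up 20.8% of those of TetLowReg 7, 19.5% of TetLowReg 8, 18.3% of TetLowProg 9 and 6.95% of TetLowProg 12. Spearman correlations of CPM over the shared genes, which are across genes and not across replicates, were 0.298 to 0.589 for the 6 pairs of rich libraries and 0.323 to 0.424 for the 10 pairs of sparse ones. The 3 lowest rich pairs, 0.298 to 0.375, were those with TetLowProg 9.

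Sparse libraries mostly held parts of this common set. Of their found genes, 934 (72.0%) in TetHighProg 1, 470 (78.5%) in TetHighProg 2, 1846 (58.0%) in TetHighProg 5, 612 (79.9%) in TetLowReg 6 and 882 (76.8%) in TetLowProg 10 were shared genes. Between 1.83% and 6.66% of a sparse library's found genes were found in no rich library. Yet each sparse library held a different part: 975 shared genes (30.5%) were found in no sparse library, 955 in 1, 577 in 2, 305 in 3, 205 in 4 and 180 (5.63%) in all 5. Without TetHighProg 2 the number found in every sparse library was 296. In all, 2222 (69.5%) were found in at least 1 sparse library, and 606 had 0 reads in every sparse library. TetHighProg 5 alone supplied 643 of those found in just 1 sparse library. A count of 0 allows up to 3 reads in a library, and such limits cover counting error only, since PCR copies are not independent molecules.

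The T cell lists held 125 genes in 6 functional lists. Of the 125, 102 were found in TetLowReg 7, 88 in TetLowReg 8, 111 in TetLowProg 9 and 97 in TetLowProg 12. The sparse libraries held 28 in TetHighProg 1, 16 in TetHighProg 2, 61 in TetHighProg 5, 18 in TetLowReg 6 and 31 in TetLowProg 10. Of all 32976 genes, found genes made up 24.3%, 21.9%, 24.5% and 19.5% in the rich libraries and 3.94%, 1.82%, 9.65%, 2.32% and 3.48% in the sparse ones, in the same orders. The T cell genes found were 81.6%, 70.4%, 88.8% and 77.6% of the 125 in the rich libraries and 22.4%, 12.8%, 48.8%, 14.4% and 24.8% in the sparse ones. As a share of counts the sides overlapped, at 1.47% to 4.36% in rich and 2.96% to 4.10% in sparse libraries, so a sparse library put a similar share of its reads on far fewer T cell genes. All 4 rich libraries shared 75 of the 125 (60%, against 9.69% of all genes). Of these 75, 60 (80.0%) were found in at least 1 sparse library, against 69.5% of all shared genes, and 4 (5.33%) were found in all 5, against 5.63%. These shares are not matched for level: the median lowest CPM over the rich libraries was 39.9 for the 75 and 10.8 for all shared genes. Among shared genes with a lowest CPM of 19.5 to 57.9, 77.5% were found in a sparse library, near the 80.0%. The shares given for single lists below are not matched for level either. With TetLowProg 9 as the only rich library, 73 of its 111 T cell genes (65.8%) were found in a sparse library, against 39.8% of all its found genes, and without it 60 of 77 (77.9%), against 66.0%. The adaptor Trat1 was found in no library.

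In the sparse libraries a shared T cell gene was mostly either absent or deeply read, as were shared genes in general. Among the 75, TetHighProg 1 had 40 with 0 reads, 10 with 1 to 9 and 25 with at least 1000, and none in between. TetHighProg 2 had 50 with 0 reads and 13 with at least 1000, TetLowReg 6 had 50 and 12, and TetLowProg 10 had 34 and 26. TetHighProg 5, the sparse library with most found genes, had 23 with 0 reads and 42 with at least 1000. Over all 3197 shared genes, 34.2% to 75.8% had 0 reads in a sparse library and 11% to 40.2% had at least 1000, beside 30.7% to 66.7% and 16% to 56% of the 75. By the choice of the shared genes, no rich library had any of the 75 below 10 reads, and 74 of them had at least 1000 reads in TetLowProg 9, 61 in TetLowProg 12, 55 in TetLowReg 7 and 50 in TetLowReg 8.

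**Figure D3:**
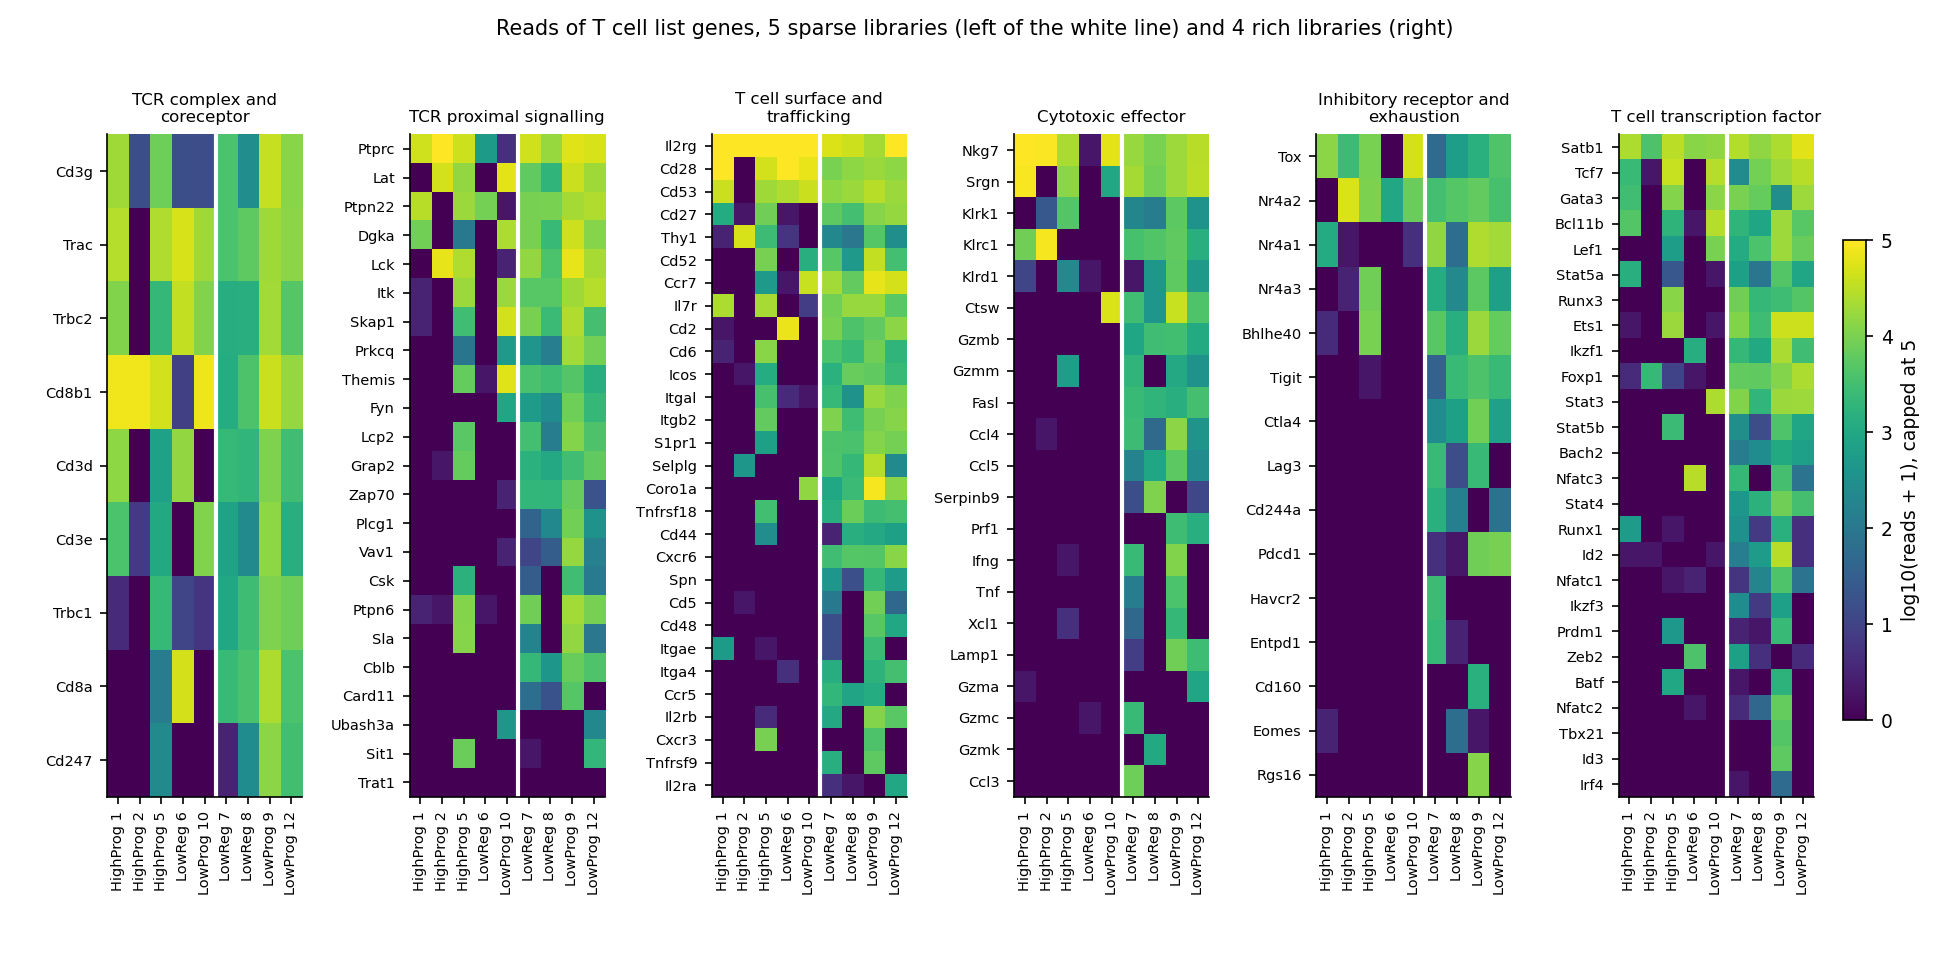
The heat map shows log10(reads + 1) for the T cell genes reported here (rows, a panel per list) in the 5 sparse libraries left of the white line and the 4 rich libraries right of it, with the color capped at 5. Over all 75 shared genes, not all of which are drawn, TetHighProg 1 splits into 50 with fewer than 10 reads and 25 with at least 1000, while every rich library has at least 10 reads on each.

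Receptor and coreceptor genes were the T cell list best kept in sparse libraries: 8 of its 9 genes were shared by the rich libraries and all 8 were found in at least 1 sparse library, but only Cd3g was found in all, against 9.69% of all genes that were shared, 69.5% of shared genes found in a sparse library and 5.63% found in all. The sparse libraries held 6, 2, 9, 6 and 5 of the 9 in TetHighProg 1, TetHighProg 2, TetHighProg 5, TetLowReg 6 and TetLowProg 10, against 3.94%, 1.82%, 9.65%, 2.32% and 3.48% of all genes. As a share of counts the list took 0.309% to 0.674% in sparse and 0.0458% to 0.52% in rich libraries, which overlapped.

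Trac, the constant segment of the receptor alpha chain (GRCm39 chromosome 14, 54457978 to 54461663, plus strand), had 3758, 5724, 19456 and 13224 reads in TetLowReg 7, TetLowReg 8, TetLowProg 9 and TetLowProg 12. In TetHighProg 1, TetHighProg 2, TetHighProg 5, TetLowReg 6 and TetLowProg 10 it had 27711, 0, 24823, 50656 and 19730. It was thus absent from TetHighProg 2 and above every rich library in the other 4 sparse ones by reads. Trbc2, a constant segment of the beta chain (chromosome 6, 41523664 to 41525286), had 1331, 1418, 20393 and 4827 reads in the rich libraries in that order. In the sparse ones it had 11071, 0, 2149, 35359 and 11474. Its near-identical neighbour Trbc1 had 994, 2793, 10826 and 7854 in the rich libraries and 3, 0, 2191, 10 and 5 in the sparse ones, and because both genes share sequence the split of reads between them is uncertain.

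The coreceptor chains parted in the sparse libraries. Cd8b1 (chromosome 6, 71299772 to 71315087) had 1250, 4006, 39376 and 16482 reads in the rich libraries and 79539, 78155, 45442, 8 and 75010 in the sparse ones. Cd8a, the partner chain needed for CD8 at the surface (chromosome 6, 71350411 to 71356157), had 2419, 3680, 24040 and 3755 in the rich libraries and 0, 0, 123, 47022 and 0 in the sparse ones. Where 1 chain was deeply read in a sparse library the other was low or absent, whereas both were found in every rich library. In CPM, Cd8b1 was 471 ± 455 (SD, n = 4) in rich and 2090 ± 1250 (n = 5) in sparse libraries, which overlapped.

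The CD3 chains were kept in part. Cd3g had 3895, 276, 36431 and 13065 reads in the rich libraries and 19664, 15, 7778, 15 and 14 in the sparse ones, so its presence in all 9 libraries rests on 14 or 15 reads in 3 of them. Cd3d had 2281, 1941, 10810 and 2892 in the rich and 13926, 0, 720, 15390 and 0 in the sparse libraries. Cd3e had 757, 230, 14452 and 1394 in the rich and 3828, 6, 1109, 0 and 11486 in the sparse libraries. Cd247, the zeta chain, was the receptor gene not shared by the rich libraries, with 2, 267, 13267 and 3118 reads there and 0, 0, 230, 0 and 0 in the sparse ones. TetHighProg 2, sorted as CD8+ tetramer-binding cells, had 0 reads of Trac, Trbc1, Trbc2 and Cd3d, and its CD8+ T cell identity rested in this list on Cd8b1. Cd44, the antigen whose protein was used in the sort, had 2, 1421, 1039 and 697 reads in the rich libraries and 0, 0, 287, 0 and 0 in the sparse ones.

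Of 23 genes of proximal receptor signalling, 16 were shared by the rich libraries and 12 of those (75%) were found in at least 1 sparse library, none in all, against 69.5% of all shared genes. Without TetHighProg 5 it was 10 (62.5%), against 49.4%. Lck had 15469, 3782, 66200 and 22199 reads in the rich libraries and 0, 64706, 25167, 0 and 2 in the sparse ones. Lat had 6118, 1881, 40039 and 19343 in the rich and 0, 44665, 15765, 0 and 61000 in the sparse libraries. In the sparse libraries Lat thus ranged from absent to above every rich library, and Lck from absent to near the highest of the rich by reads. The phosphatase CD45, encoded by Ptprc, had 43200, 16743, 56881 and 50022 reads in the rich libraries and 43524, 147947, 41368, 541 and 4 in the sparse ones. Ptpn22, a phosphatase that restrains Lck and Zap70, had 9362, 9650, 21220 and 25165 in the rich and 28533, 0, 18056, 9010 and 1 in the sparse libraries. Zap70, with 2027, 1973, 6991 and 18 reads in the rich libraries, the adaptor Vav1, the phospholipase Plcg1 and the ubiquitin ligase Cblb were found in every rich and no sparse library. These 4, and the other T cell genes described below as found in every rich and no sparse library, were picked out after their values were seen.

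Among 30 surface and trafficking genes, 20 were shared and 17 of these (85%) were found in a sparse library, against 69.5% of all shared genes. Without TetHighProg 5 it was 11 (55%), against 49.4%. Il2rg, the common cytokine receptor chain (chromosome X, 100307984 to 100311861), was found in all 9 libraries with 53755, 41819, 21629 and 152982 reads in the rich and 251482, 98806, 192880, 145200 and 166956 in the sparse ones. Its CPM was 2370 ± 1840 (SD, n = 4) in rich and 6630 ± 1710 (n = 5) in sparse libraries, with overlap. The tetraspanin Cd53 had 14407, 17477, 28604 and 18040 reads in the rich and 40260, 0, 19683, 25131 and 39828 in the sparse libraries. Ccr7, the receptor that leads T cells to lymph nodes, had 20324, 6337, 63999 and 46920 in the rich and 0, 0, 511, 1 and 38413 in the sparse libraries. The chemokine receptor Cxcr6 and the sialoglycoprotein gene Spn were found in every rich and no sparse library, Cxcr6 with 2993, 4811, 4617 and 12869 reads.

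Of 21 cytotoxic genes, the rich libraries held 12 to 16. The sparse libraries TetHighProg 1, TetHighProg 2, TetHighProg 5, TetLowReg 6 and TetLowProg 10 held 19%, 14.3%, 23.8%, 0% and 14.3% of them, against 3.94%, 1.82%, 9.65%, 2.32% and 3.48% of all genes. The rich libraries shared 9, of which 5 (55.6%) were found in at least 1 sparse library, against 69.5% of all shared genes. Without TetHighProg 5 it was also 5, against 49.4%. With TetLowProg 9 as the only rich library it was 7 of 16 (43.8%), against 39.8% of all its found genes, so the order against the background changed with both choices. Gzmb, which encodes granzyme B, had 857, 2898, 3063 and 1129 reads in TetLowReg 7, TetLowReg 8, TetLowProg 9 and TetLowProg 12 and 0 in each sparse library. The death ligand Fasl had 2421, 1842, 1421 and 3396 and the chemokine Ccl5 173, 896, 5467 and 255 in the same rich libraries, and neither they nor Ccl4 were found in a sparse one. Perforin was not shared even among the rich libraries, where Prf1 had 0, 0, 2738 and 1392 reads. The cytotoxic genes with the highest lowest CPM over the rich libraries were Nkg7, Srgn and Klrc1. Nkg7, a granule membrane protein, had 16594, 9782, 18238 and 28550 reads in the rich libraries and 137017, 93821, 22811, 1 and 63210 in the sparse ones. Srgn, the granule proteoglycan serglycin, had 21438, 8792, 18348 and 29970 in the rich and 89760, 0, 13702, 0 and 993 in the sparse libraries. Klrc1, which encodes the inhibitory receptor NKG2A, had 3467, 4297, 5937 and 1432 in the rich and 8077, 84158, 0, 0 and 0 in the sparse libraries. TetLowReg 6 had 1 read of Nkg7 and none of Srgn or Klrc1.

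Of 15 genes of inhibitory receptors and exhaustion, 7 were shared and 5 of these (71.4%) were found in a sparse library, against 69.5% of all shared genes, or 3 (42.9%) without TetHighProg 5, against 49.4%. The inhibitory receptor genes Ctla4 and Tigit were found in every rich and no sparse library, Ctla4 with 273, 683, 8764 and 716 reads and Tigit with 36, 2409, 3929 and 2404. Pdcd1, which encodes PD-1, the target of the antibody given, had 4, 1, 8322 and 9258 reads in the rich libraries and 0 in every sparse one. It was thus found only in the rich TetLowProg libraries. Tox, a factor that exhausted T cells need, had 54, 594, 1491 and 4129 in the rich and 13349, 2704, 9663, 0 and 47984 in the sparse libraries. By reads it was higher in 3 of the sparse libraries than in any rich one. Nr4a2, a nuclear receptor induced by receptor signals, had 3193, 4702, 6288 and 3519 in the rich and 0, 52109, 10118, 970 and 7061 in the sparse libraries. Its relative Nr4a3 had 1221, 229, 5581 and 697 in the rich and 0, 2, 8385, 0 and 0 in the sparse libraries. The repressor Bhlhe40 had 4970, 1373, 17893 and 6629 in the rich and 3, 0, 9905, 0 and 0 in the sparse ones. Among sparse libraries these last 2 genes were found only in TetHighProg 5.

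Of 27 T cell transcription factors, 15 were shared and 13 of these (86.7%) were found in a sparse library, against 69.5% of all shared genes, or 10 (66.7%) without TetHighProg 5, against 49.4%. Satb1, a chromatin organizer of T cells (chromosome 17, 52043114 to 52140622), was found in all 9 libraries and had 25990, 14664, 23875 and 60552 in the rich and 24625, 3997, 29792, 12931 and 15090 in the sparse ones. Its levels overlapped between the sides. Tcf7, which encodes the stem-like T cell factor TCF-1, had 255, 8892, 18867 and 29432 in the rich and 2466, 1, 38620, 0 and 27422 in the sparse libraries. Foxp1, a factor of quiescence, had 6294, 6071, 11611 and 24184 in the rich and 3, 2214, 9, 1 and 0 in the sparse ones. In CPM, Foxp1 was 408 ± 254 (SD, n = 4) in rich and 17.6 ± 39 (n = 5) in sparse libraries with no overlap. Stat4 and Bach2 were found in every rich and no sparse library.

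In CPM, each rich library lay above each sparse one for 20 of the 125 T cell genes (16%), against 1932 of 17615 genes with a read (11%). They were 4 signalling, 4 surface, 4 cytotoxic and 3 inhibitory genes and 5 transcription factors, and no gene of the receptor list was among them. No T cell gene lay below in each rich library, against 25 of all genes (0.142%). As the rule used detection in these same libraries, nothing is read from these counts.

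Variable segments of the beta chain differ by T cell clone. The sparse libraries held 2, 0, 2, 1 and 0 found Trbv segments in the order above, on 11566, 0, 2544, 24130 and 0 reads. The rich libraries TetLowReg 7, TetLowReg 8, TetLowProg 9 and TetLowProg 12 held 2, 8, 16 and 6 on 194, 1954, 22233 and 4240 reads. Of all genes, 1.82% to 9.65% were found in a sparse and 19.5% to 24.5% in a rich library. Of 134 T cell receptor variable segments it was 0.746% to 11.9% and 14.2% to 36.6%. As the sides were made by the number of found genes, nothing about clones is read from the number of segments. The segment with most reads took 86.2% of them in TetHighProg 1 (Trbv13-2), 99.2% in TetHighProg 5 (Trbv13-1) and 100% in TetLowReg 6 (Trbv31). It took 55.7% in TetLowReg 7 (Trbv13-3), 40.4% in TetLowReg 8 (Trbv13-2), 16.2% in TetLowProg 9 (Trbv17) and 35.5% in TetLowProg 12 (Trbv13-2). Trbv13-2 thus led in 3 of the 7 libraries with Trbv reads, and Trbv13 segments share sequence that unique mapping can split unevenly.

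Across gene classes, survival in the sparse libraries ran from complete to absent. All shared genes of glycolysis (8 of 8), of the mitochondrial genome (9 of 9) and of the interferon-stimulated list (6 of 6) were found in at least 1 sparse library. For the interferon-stimulated list this rested on TetHighProg 5, without which 2 of 6 (33.3%) were found, against 49.4% of all shared genes. Next came splicing factors with 30 of 32 (93.8%), cytosolic ribosomal proteins with 74 of 80 (92.5%), the actin cytoskeleton with 22 of 24 (91.7%) and class I presentation with 9 of 10 (90%), against 69.5% of all shared genes. Chaperones had 16 of 19 (84.2%), mitochondrial ribosomal proteins 15 of 18 (83.3%), the proteasome 21 of 28 (75%), nuclear oxidative phosphorylation genes 44 of 59 (74.6%) and translation factors 20 of 29 (69.0%). Genes of DNA replication and mitosis had 3 of 8 (37.5%). Class II genes had 0 of 4, but 2 of 8 (25%) without TetLowProg 9 among the rich libraries, and each sparse library had 1 or 2 of the 10 class II genes found. With TetLowProg 9 as the only rich library, splicing kept 35 of 43 (81.4%), actin 24 of 28 (85.7%), ribosomal proteins 77 of 84 (91.7%) and DNA replication 3 of 18 (16.7%), against 39.8% of all its found genes. Translation factors, just under the background with all 4 rich libraries, were above it with TetLowProg 9 alone (20 of 34, 58.8%). Histone genes, above it with all 4 (6 of 7, 85.7%), were below it with TetLowProg 9 alone (9 of 24, 37.5%).

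**Figure D4:**
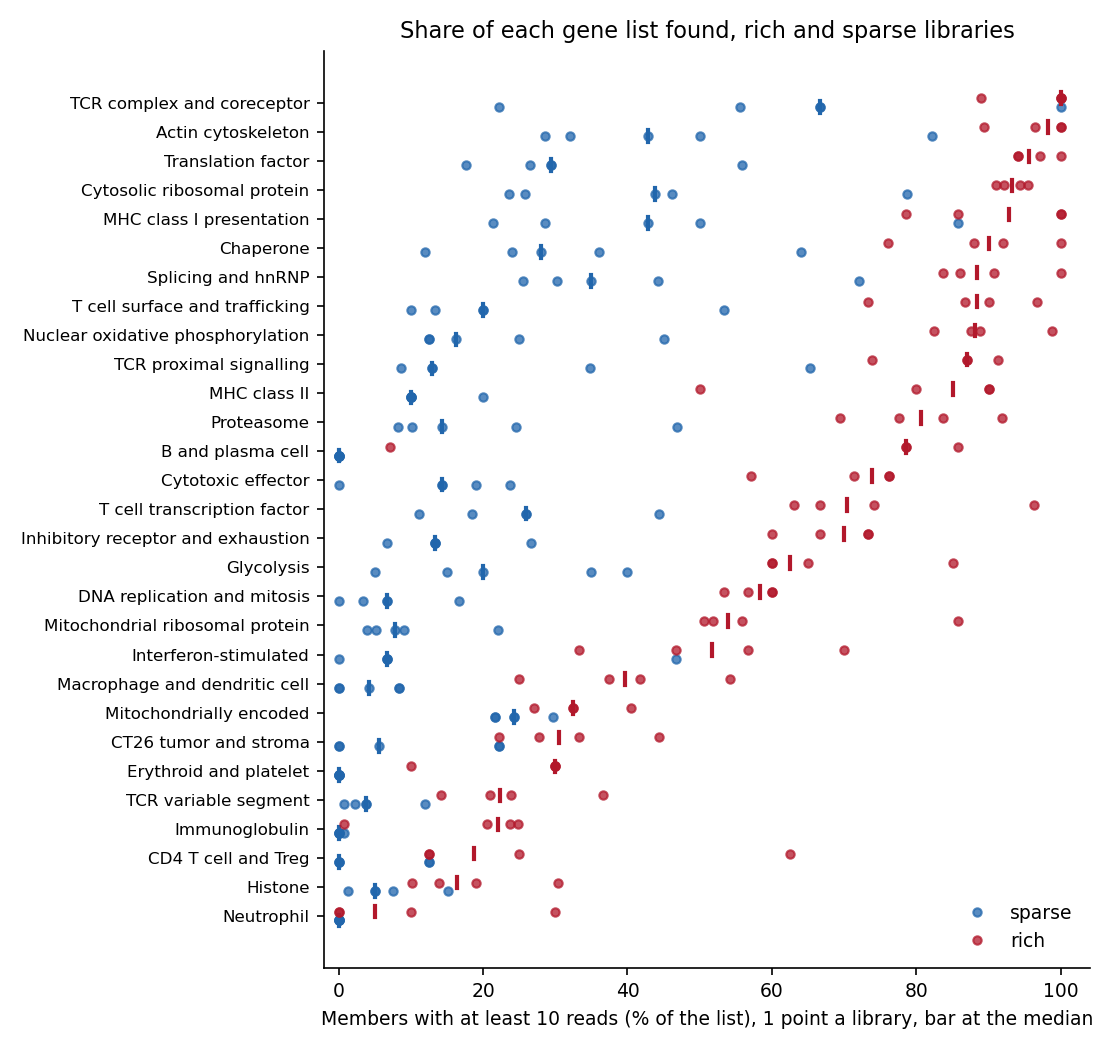
For each gene list (rows) the points give the percent of its genes found in each library (horizontal axis), with rich and sparse libraries in separate colors. For the T cell lists together the rich libraries sit at 70.4% to 88.8% and the sparse libraries at 12.8% to 48.8%.

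Presence in every sparse library was rarer and had another order. It was reached by 7 of 9 shared mitochondrial genes (mt-Rnr1, mt-Rnr2, mt-Nd2, mt-Nd4, mt-Nd5, mt-Nd6 and mt-Cytb), 8 of 32 splicing, 6 of 24 actin and 4 of 29 translation factor genes, against 5.63% of all shared genes. Only 3 of 80 cytosolic ribosomal protein genes reached it, and none of 59 nuclear oxidative phosphorylation genes. The splicing genes were Hnrnpa1, Hnrnpl, Hnrnpu, Srsf3, Srsf7, Srsf10, Srsf11 and Tra2b. Tra2b, a splicing activator, had 17688, 18760, 17560 and 32165 reads in the rich libraries and 66058, 75222, 35677, 50050 and 61735 in the sparse ones, with no overlap. The chaperone Hspa8 had 37383, 33582, 53109 and 43896 in the rich and 110527, 25900, 149298, 143718 and 84268 in the sparse libraries. The actin gene Actb had 498955, 211771, 402380 and 150678 in the rich and 1842795, 673451, 235409, 298681 and 258524 in the sparse ones. The mitochondrial genes mt-Co2, mt-Co3 and mt-Atp6, which every cell uses, had at most 1 read in any library, and are listed at or near 0 with no statement on their level.

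Some genes that are abundant in most cells were also absent or near 0 in at least 1 sparse library each, though deeply read in others. Eef1a1, the main elongation factor of translation, had 23870, 12054, 224865 and 37932 reads in the rich and 3, 309, 11485, 0 and 74123 in the sparse libraries. H2-D1, a class I molecule, had 51820, 18937, 209127 and 178762 in the rich and 5262, 2, 27515, 0 and 13841 in the sparse libraries, with an uncertain assignment of reads because class I genes are near copies. The glycolytic enzyme Aldoa had 13785, 8491, 14553 and 38622 in the rich and 28997, 158211, 27084, 0 and 5374 in the sparse ones. TetLowReg 6 had 0 reads of all 3. The ribosomal protein gene Rpl5 had 10870, 9211, 18868 and 20022 in the rich and 855, 1, 21341, 3927 and 159 in the sparse libraries. Pcna, the clamp of the replication fork, had 4544, 2143, 8371 and 5944 in the rich and 0, 0, 9009, 0 and 1111 in the sparse ones. Psmc3 of the proteasome had 13519, 6629, 10757 and 10274 in the rich libraries and was found only in TetHighProg 5 (1204 reads) among the sparse.

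A few genes led the reads of several sparse libraries. The long noncoding RNA Malat1 and the phosphatase gene Ptp4a2 were among the 5 genes with most reads in all 5 sparse libraries. Malat1 had 1266197, 700161, 110460 and 426668 reads in the rich libraries and 2089912, 1778008, 807983, 1351975 and 1450599 in the sparse ones. Its CPM was 23500 ± 18400 (SD, n = 4) against 57500 ± 13000 (n = 5), with overlap. Ptp4a2 had 272904, 335537, 43154 and 319446 in the rich and 932117, 1066834, 522698, 668690 and 831912 in the sparse libraries, which did not overlap. The antiviral factor Zc3hav1 was among the 5 in 3 sparse libraries, with 199561 to 678340 reads in all 5 against 31038 to 211062 in the rich. The histone gene H3f3b had 235041 to 490473 in the sparse and 74441 to 660873 in the rich libraries. Rbm5, a splicing regulator, had 261859, 2, 250768, 395325 and 424163 reads in the sparse libraries, so that a gene in the top 5 of 2 sparse libraries had 2 reads in another. Long noncoding RNAs took 4.45% to 8.21% of the counts of a sparse library and 0.911% to 4.76% of those of a rich one, with overlap.

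The 25 genes whose CPM was lower in each rich than in each sparse library included the RNA-processing genes Arglu1, Son, Wtap and Tra2b, the translation factor Eif5b, the ribosomal protein gene Rps25 and the mitosis and histone mRNA genes Smc4 and Slbp, which were picked out after their values were seen. In the splicing, translation factor and cytosolic ribosomal protein lists, most genes overlapped between the sides. Of 43 splicing genes, 10 (23.3%) lay above in each rich library and 1 below. Of 34 translation factors, 11 (32.4%) lay above and 1 below, and of 89 cytosolic ribosomal protein genes, 17 (19.1%) and 1. As the rule used detection in these same libraries, nothing is read from these counts about the lists. Among the 25 genes, Ifi204, Ifi211 and Mndal belong to an interferon-inducible family of near copies, and Cbx3-ps7 is a pseudogene, so their read assignment is uncertain. A larger number, 1190 of the 3197 shared genes (37.2%), lay above in each rich library, and 25 (0.782%) lay below.

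Detection in the sparse libraries was more frequent for genes at a high level in the rich ones, with many exceptions. Shared genes were put into 5 bins of 639 or 640 genes by their lowest CPM over the rich libraries, from 0.275 to 1.71 in the lowest bin and 57.9 to 5880 in the highest. From the lowest bin to the highest, the share found in at least 1 sparse library was 50.8%, 56.3%, 70.6%, 77.5% and 92.3%, and the share found in all 5 was 1.09%, 1.56%, 2.82%, 3.76% and 18.9%. In the highest bin, TetHighProg 2 still held just 33.9% of the genes, TetLowReg 6 41.7%, TetHighProg 1 and TetLowProg 10 55.2% each and TetHighProg 5 85.8%. Found shared genes had a median log2 CPM 0.693 to 1.31 above their own median over the rich libraries, and 63.9% to 65.4% of them lay above it. For T cell genes the median excess was 0.670 to 1.78 on the log2 CPM scale over 16 to 50 genes. CPM is relative, and fewer genes shared the counts of a sparse library. These medians also cover only genes with at least 10 reads in that same sparse library. Shared genes with fewer reads there are left out, so the choice of genes itself favors an excess and nothing is read from it.

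**Figure D5:**
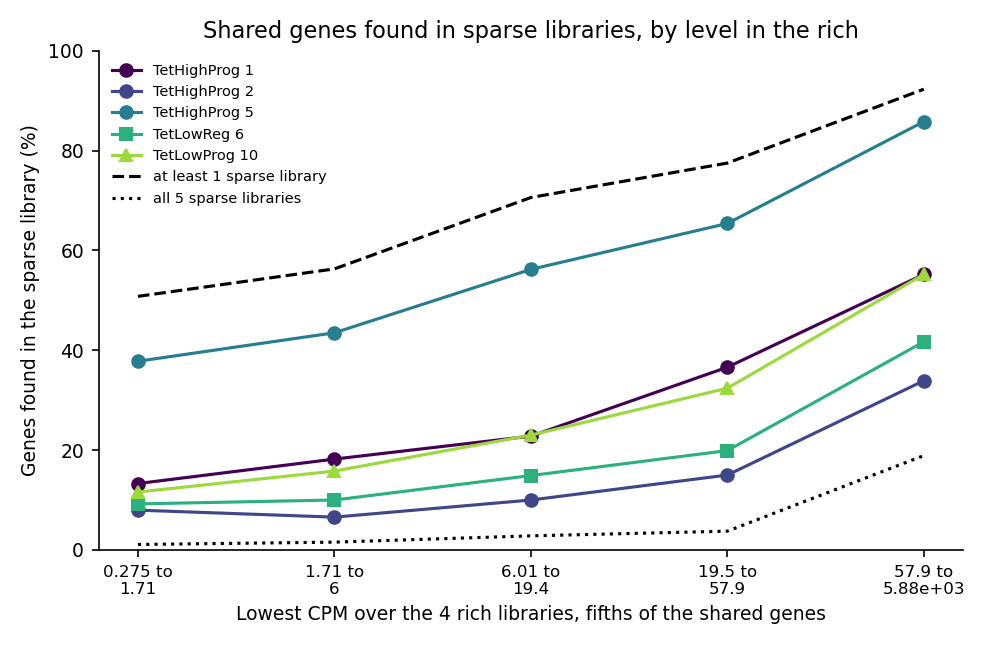
The lines give, for each sparse library, the percent of shared genes found (vertical axis) in 5 bins of the genes by their lowest CPM over the 4 rich libraries (horizontal axis, lowest to highest), with a dashed line for genes found in at least 1 sparse library and a dotted line for those found in all 5. In the highest bin the sparse libraries hold 33.9% to 85.8% of the genes.

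Length, GC content and exon number were set beside survival over protein-coding genes. Over these genes, the median length of the canonical transcript was 3660 bases for the 3075 shared genes, 3767 for the 941 found in no sparse library and 3585 for the 165 found in all 5, against 2980 for all 20726. The median exon number was 10, 11 and 8 in that order, against 7. Median GC content was 48.1%, 49.2% and 46.1% in that order, against 49.3%. Genes with a single exon made up 1.01%, 0.531% and 5.45%, against 5.11%. Found genes had a median GC of 47.1% to 48.4% in sparse and 48.9% to 49.9% in rich libraries, which did not overlap.

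Within the rich libraries, low avidity cells of progressing tumors (TetLowProg 9 and 12) were compared with those of regressing tumors (TetLowReg 7 and 8). No gene of 8243 was called (0.0%) by the 2-sided quasi-likelihood test of edgeR, where a call needed an adjusted p below 0.05 and a log2 fold change beyond 2 either way. At an unadjusted p below 0.05 there were 668 (8.1%), 246 higher and 422 lower in TetLowProg, and the smallest adjusted p in edgeR was 0.57. The spread between libraries of a group was wide, with a common dispersion of 3.06, so the absence of calls does not show that the groups were alike. DESeq2 called 902 and limma-voom 294 on the same libraries. The balance of directions moved with the scaling. The median log2 fold change over all genes tested was 0.16 with TMM, 1.05 with library size in its place and -0.05 with DESeq2. Of the T cell lists, 105 genes were tested and 0 called, with 5 higher and 1 lower at the unadjusted threshold and a median log2 fold change of 0.77, beside 0.16 over all genes tested. The fitted difference was positive for all 9 receptor and coreceptor genes, with a median of 1.63, none of which passed the test. Other lists also lay away from 0, some further than the receptor list and some nearer. The median was 1.66 for 84 cytosolic ribosomal protein genes, 1.63 for 16 glycolysis genes and 1.86 for 18 interferon-stimulated genes, and -1.91 for 13 mitochondrially encoded, -1.25 for 12 B and plasma cell and -1.49 for 11 macrophage and dendritic cell genes, with 0 called in each. The other scalings gave medians for the receptor and coreceptor list of 1.2 to 2.56, and with DESeq2 scaling 8 of its 9 genes were positive. Class II genes, carried by the other 3 rich libraries and nearly absent from TetLowProg 9, had a median of -1 over 9 genes, 0 called. The same groups with all libraries, 3 against 3, gave 1 called gene, leaving out TetLowProg 9 gave 4 and leaving out TetLowProg 12 gave 118.

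Within the sparse libraries, the 3 TetHighProg libraries were compared with the low avidity ones, TetLowReg 6 and TetLowProg 10. Of 1527 genes tested, 3 (0.196%) were called by edgeR, all higher in TetHighProg, and 53 (3.47%) passed an unadjusted p below 0.05, 48 of them higher. Spp1, which encodes the secreted protein osteopontin, had 0.928, 21800 and 1500 CPM in TetHighProg 1, TetHighProg 2 and TetHighProg 5 and 0 and 0.716 in the low avidity libraries, a log2 fold change of 14.1 ± 2.48 (SE, adjusted p = 2.25e-05 in edgeR). The value in TetHighProg 1 was near those of the low avidity libraries, and without TetHighProg 2 the log2 fold change was 10.83 with an adjusted p of 0.512 in edgeR. With the rich low avidity libraries added it was 6.95 (adjusted p = 0.0836 in edgeR), and limma-voom gave 9.28 (adjusted p = 0.251). Uqcrc1, a core subunit of respiratory complex III, had 1590, 6900 and 1410 CPM against 0 and 0 (adjusted p = 0.0248 in edgeR), and without TetHighProg 2 the adjusted p in edgeR was 0.437. The mitochondrial gene mt-Cytb of the same complex had 41600, 16400 and 20600 CPM against 4840 and 5190, a log2 fold change of 2.45 ± 0.60 (SE, adjusted p = 0.0248 in edgeR). Over 11 or 12 alternative settings, Spp1 was called in 4, Uqcrc1 in 3 and mt-Cytb in 2. With TetHighProg 2, TetHighProg 5 or TetLowReg 6 left out no gene was called, and with TetHighProg 1 or TetLowProg 10 left out 1 was. With the rich low avidity libraries added, mt-Cytb turned to -2.33 on the log2 scale. None of the 38 T cell genes tested was called, 3 were higher at the unadjusted threshold, and their median log2 fold change was -0.14 beside 0.53 over all genes tested. DESeq2 called 337 genes and limma-voom 44.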

How the data were processed

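The authors deposited 1 table per library, which holds unnormalized read counts for each gene. Per the labels and the study's methods, the authors aligned reads to mouse GRCm39 with STAR 2.7.6a. The methods name featureCounts, whereas the tables have the layout of STAR's own counts, which leave out reads that map to several places, and the annotation release is not given in the sources used here. Unstranded counts were used. The 4 summary lines were left out. Of 32976 gene IDs, 28645 were matched to GENCODE M39 for names and coordinates, and 4331 kept their ID. Libraries were grouped by GEO's labels, and rich and sparse sides by the rule on found genes.

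The members and lists were chosen with earlier results of these data known. Counts of found genes, CPM and their ranges were computed in Python 3.11.15 with pandas 2.3.3. Only comparisons among libraries of the same side were tested, by the quasi-likelihood method of edgeR 4.0.16 in R 4.3.3 (Benjamini-Hochberg adjustment, its default filter, TMM scaling, prior count 2), on the counts as deposited. TMM factors were 0.596 to 1.74 among rich and 0.952 to 1.08 among sparse libraries, and the common dispersion was 3.06 and 8.18. DESeq2 1.42.0, limma 3.58.1 (voom), other scalings, filters and read minimums, and leaving out each library, were alternatives. Scripts were tested on simulated data.

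Genes were named by a rule: the receptor and coreceptor list with Cd44 and Ptprc, the 3 genes of each other T cell list and the 1 gene of each common list with the highest lowest CPM over the rich libraries, the 5 genes with most reads in each sparse library, T cell genes found in all 9 libraries, and called genes. Lat, Tox, Tcf7, Pdcd1, Prf1 and genes named for cells other than T cells were added after their values were seen. Values of some members are not reported here.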

Additional observations from a re-analysis of the deposited data

Results flagged for a closer look

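Values per library were checked for 1 library standing far from the others of its side. Of 222 values, 46 did so. Chance gives about 1 in 20 for independent values, which these are not: the found genes also set the sides, the shares of lists found follow from them, and many sparse values are near 0 in all libraries but 1, so the number is not read against chance. TetHighProg 5 stood apart in 18 and TetLowProg 9 in 10, and the other libraries in 0 to 5 each.

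TetHighProg 5 stood above the other sparse libraries with 3181 found genes, with 53.3% of the surface and trafficking genes found, 46.7% of the interferon-stimulated genes, 22.1% of the mitochondrial ribosomal protein genes and 11.9% of the T cell receptor variable segments. It also had 0.803% of immunoglobulin and 0.492% of olfactory and vomeronasal receptor genes found, on 0.00071% and 0.00218% of its counts. Its receptor and adhesion genes Cd247, Trbc1 and Cd44 were at 10.1, 96.6 and 12.6 CPM, and its factors Bhlhe40 and Nr4a3 at 437 and 370 CPM. Pcna, Samhd1, Rpl5 and Psmc3 were at 397, 22.5, 941 and 53.1 CPM there.

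TetLowProg 9 stood apart from the other rich libraries with 13.4% of counts on unmatched genes, 4.99% on cytosolic ribosomal protein genes, 1.34% on chaperones and 0.0797% on tumor and stroma genes. It had 85.7% of the mitochondrial ribosomal protein genes found, 7.14% of the B and plasma cell genes and 10% of the erythroid and platelet genes. Cd3e was at 398, Nr4a3 at 154 and Eef1a1 at 6190 CPM there.

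TetHighProg 2 stood apart in Spp1 at 21800, Aldoa at 6250, Klrc1 at 3320, Nr4a2 at 2060 and Foxp1 at 87.4 CPM. TetHighProg 1 stood apart in Srgn at 2690 CPM, in macrophage and dendritic cell genes at 0.154% and neutrophil genes at 2.99e-06% of counts (1 read against 0 in the other sparse libraries, which carries no weight), and in 20.0% of the class II genes found. TetLowReg 6 stood apart in Cd8a at 2130, Trbc2 at 1600 and Uqcr10 at 1190 CPM. TetLowProg 10 stood apart in Eef1a1 at 2950, Ccr7 at 1530 and Cd3e at 457 CPM. Among rich libraries, TetLowReg 7 had 88.9% of the receptor genes found where the others had all, and 0.0147% of counts on neutrophil genes, and TetLowProg 12 had Aldoa at 1230 CPM.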

How the results depend on the processing

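The numbers of genes shared by the rich libraries, and of those found in at least 1 sparse library, stayed within 1.5 times their value at minimums of 1 read, 100 reads and 1 CPM, among protein-coding genes and without any 1 library (3630 to 3994 shared, 1579 to 2188 in a sparse library, the lowest without TetHighProg 5). Genes found in all sparse libraries numbered 317 at 1 read and 180 to 296 without 1 sparse library. With the sparse low avidity libraries alone, 1116 shared genes were found in at least 1 and 378 in both. TetLowProg 9 alone, tried only after the data had been seen, held 8071 genes. Between rich TetLowProg and TetLowReg, 0 called genes became 3 without a filter, 902 with DESeq2, 901 with its poscounts factors, 294 with limma-voom, 1 with all libraries and 0 to 118 without 1 library. Between the sparse groups, 3 called genes became 0 without a filter and with 10 counts in every library of a group, 1 without mitochondrial genes, 337 with DESeq2, 294 with poscounts, 44 with limma-voom, 1 with all libraries and 0 to 1 without 1 library, and mt-Cytb was -2.33 on the log2 scale with all libraries (adjusted p = 0.101 in edgeR). The cause of these differences was not tested. Where a library left out leaves 1 in a group, that library is assumed to vary like the others. No paired analysis was possible because the labels do not say which libraries share a tumor and the groups share no replicate numbers. With 16405306 to 36429515 gene counts per library but no molecular identifiers, the number of molecules behind a count is unknown.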
